A study of Mus musculus with 21 samples.

Results

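The transcripts of 10 circadian clock genes were followed across whole livers of mice that differed in genotype and diet. The genes, Arntl, Npas2, Per1, Per2, Per3, Cry1, Nr1d1, Nr1d2, Dbp and Ciart, were taken by symbol from the 55418 symbols counted in each of 21 libraries. All 10 were present, and all 10 were among the 15677 genes with enough reads to be tested. Mice carried either a deletion of Mboat7 in hepatocytes (KO) or wild-type Mboat7 (WT). Mboat7 encodes an acyltransferase that places arachidonic acid on lysophosphatidylinositol. They received either a high fat, low methionine, choline-deficient diet (HFMCD) for 6 weeks, started at 6 to 8 weeks of age, or chow until 10 weeks of age. There were 4 KO livers on HFMCD, 4 WT livers on HFMCD, 7 KO livers on chow and 6 WT livers on chow. The labels name neither the Cre line nor the promoter behind the deletion, and they give no sex, hour of collection or feeding state. Replicate numbers only name the livers within a group. HFMCD and chow animals also came from separate runs of animal numbers, so diet, age and that division cannot be told apart.

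In mammals the clock is a feedback loop of transcription. ARNTL (BMAL1) pairs with CLOCK or NPAS2, binds E-box sequences and drives the Per, Cry, Nr1d, Dbp and Ciart genes. PER and CRY proteins, and CIART (CHRONO), then block ARNTL and its partner, while NR1D1 and NR1D2 (REV-ERB alpha and beta) repress Arntl, Npas2 and Cry1 through elements that ROR activators also bind. DBP is an output factor that binds D-box sequences. In liver, transcripts of the loop swing over the day with different peak hours, and food intake and glucocorticoids can shift them.

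Promoter windows of 300 bases, from 250 before to 50 after the transcription start, were taken from RefSeq on GRCm38.p6, which held 11 windows for 9 of the 10 genes. Each was searched on both strands for the E-box CACGTG, the D-box TTANGTAA and the ROR element cores TAGGTCA and TGGGTCA. No motif overlapped another, and positions count the start base as 1. The promoters of Arntl, Nr1d1, Dbp and Per1 are shown because these genes stand for the activator, its repressor, the output and the negative limb. Arntl and Per1 have 2 windows each, from different starts, and the window shown is the one with a match, while the other window of each held none of the motifs. Those of Per3, Cry1 and Ciart are shown because they hold a match, and they were added after the matches were known. Capitals mark matches, and each sequence runs 5′ to 3′ along the gene.
Arntl promoter, chr7:113207261-113207560, forward strand: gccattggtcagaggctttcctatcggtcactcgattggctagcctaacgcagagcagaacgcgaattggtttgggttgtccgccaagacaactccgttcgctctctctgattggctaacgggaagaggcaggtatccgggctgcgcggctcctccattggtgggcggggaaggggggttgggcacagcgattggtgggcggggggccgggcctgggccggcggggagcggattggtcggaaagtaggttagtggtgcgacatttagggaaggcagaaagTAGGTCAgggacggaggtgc
Nr1d1 promoter, chr11:98775328-98775627, reverse strand: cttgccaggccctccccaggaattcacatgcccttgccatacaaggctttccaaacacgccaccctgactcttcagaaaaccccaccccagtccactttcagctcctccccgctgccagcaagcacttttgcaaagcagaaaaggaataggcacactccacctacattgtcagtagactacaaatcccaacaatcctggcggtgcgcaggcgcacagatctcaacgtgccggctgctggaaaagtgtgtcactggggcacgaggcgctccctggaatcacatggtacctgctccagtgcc
Dbp promoter, chr7:45704997-45705296, forward strand: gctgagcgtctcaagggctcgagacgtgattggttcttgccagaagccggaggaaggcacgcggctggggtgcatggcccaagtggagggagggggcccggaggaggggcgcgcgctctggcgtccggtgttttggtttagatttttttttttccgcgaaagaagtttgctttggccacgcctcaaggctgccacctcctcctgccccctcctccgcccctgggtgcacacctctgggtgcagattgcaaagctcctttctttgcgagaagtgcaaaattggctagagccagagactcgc
Per1 promoter, chr11:69098699-69098998, forward strand: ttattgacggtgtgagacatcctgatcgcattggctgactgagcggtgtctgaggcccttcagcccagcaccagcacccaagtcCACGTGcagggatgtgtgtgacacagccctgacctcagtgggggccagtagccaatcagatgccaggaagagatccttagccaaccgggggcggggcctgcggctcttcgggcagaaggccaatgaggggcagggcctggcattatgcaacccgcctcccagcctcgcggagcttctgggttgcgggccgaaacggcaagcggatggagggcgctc
Per3 promoter, chr4:151044616-151044915, reverse strand: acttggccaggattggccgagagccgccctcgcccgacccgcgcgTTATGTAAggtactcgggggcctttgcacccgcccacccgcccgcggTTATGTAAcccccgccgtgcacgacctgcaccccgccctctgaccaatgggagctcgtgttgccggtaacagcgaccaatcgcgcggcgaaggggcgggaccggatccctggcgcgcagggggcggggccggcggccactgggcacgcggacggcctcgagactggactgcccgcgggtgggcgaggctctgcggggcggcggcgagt
Cry1 promoter, chr10:85185005-85185304, reverse strand: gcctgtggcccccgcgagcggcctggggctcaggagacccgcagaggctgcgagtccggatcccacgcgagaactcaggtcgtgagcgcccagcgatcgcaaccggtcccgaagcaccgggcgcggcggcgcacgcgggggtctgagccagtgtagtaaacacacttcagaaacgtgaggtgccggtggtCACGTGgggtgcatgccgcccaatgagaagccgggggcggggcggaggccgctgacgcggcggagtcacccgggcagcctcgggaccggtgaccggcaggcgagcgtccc
Ciart promoter, chr3:95882179-95882478, reverse strand: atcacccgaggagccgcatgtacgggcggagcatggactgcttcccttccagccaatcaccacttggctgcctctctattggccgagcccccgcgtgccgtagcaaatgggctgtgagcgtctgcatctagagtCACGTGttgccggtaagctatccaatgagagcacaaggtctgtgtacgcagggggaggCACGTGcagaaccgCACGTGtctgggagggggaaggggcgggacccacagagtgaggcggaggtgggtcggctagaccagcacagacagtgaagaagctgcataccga

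The E-box was found in the windows of 3 of the genes, with 1 copy in Per1, beginning at -166 from the start, 1 in Cry1, at -60, and 3 in Ciart, at -116, -58 and -44. Across all 32851 RefSeq promoters of this length, 7.15% hold it. Per3 carried 2 D-boxes, beginning at -205 and -158, a motif held by 2.32% of promoters. The Arntl window shown carried a ROR element core that begins at position 31, and 6.45% of promoters hold either form of that core. The windows of Nr1d1 and Dbp held none of these letters. A match describes the sequence and does not show a bound site.

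Libraries held 17502231 to 25822972 counts. The deleted gene Mboat7 was lower in every KO liver (15.8 to 24.1 CPM, counts scaled to the library total) than in any WT liver (33.0 to 39.7 CPM). The defining hepatocyte transcripts were abundant, with Alb, Apoa1, Ttr and Cps1 together at 81426 to 125058 CPM in each liver. KO chow replicates 1 and 7 carried transcripts of other tissues. Replicate 7 had 946 CPM of 4 skeletal muscle markers, against at most 1.06 CPM in WT chow livers. Replicates 1 and 7 had 120 and 62.8 CPM of 3 gallbladder and gland mucosa markers, of which WT chow livers had up to 48.1 CPM. KO HFMCD replicate 2 stood apart in the clock genes themselves and is described with its values after the covariation of the genes.

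Per kilobase of exon, Nr1d1 was the most abundant of the 10 transcripts in every group. It averaged 18.3 ± 7.70 CPM per kb in KO HFMCD livers, 19.4 ± 1.34 in WT HFMCD livers (SD, n = 4 each), 19.3 ± 12.4 in KO chow livers (n = 7) and 22.9 ± 13.02 in WT chow livers (n = 6). Outside KO HFMCD livers Nr1d2 came second, and it was separated from Nr1d1 beyond the SDs only in WT HFMCD livers, where it averaged 8.52 ± 0.759 CPM per kb. In KO HFMCD livers Dbp came second at 9.15 ± 12.2 CPM per kb, against 8.93 ± 3.32 for Nr1d2, a difference within their spread. Replicate 2 carried that place, with 8.77 times the mean Dbp of the other 3 livers. In chow livers Per1 followed Nr1d2 closely, with 10.15 ± 2.71 and 11.9 ± 3.31 CPM per kb in KO and 11.05 ± 4.95 and 11.7 ± 3.53 in WT, and neither pair could be ordered beyond its spread. Per3 was lowest in KO HFMCD, KO chow and WT chow livers (0.400 to 0.644 CPM per kb), and Ciart was lowest in WT HFMCD livers, at 0.325 ± 0.286 CPM per kb.

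**Figure D1:**
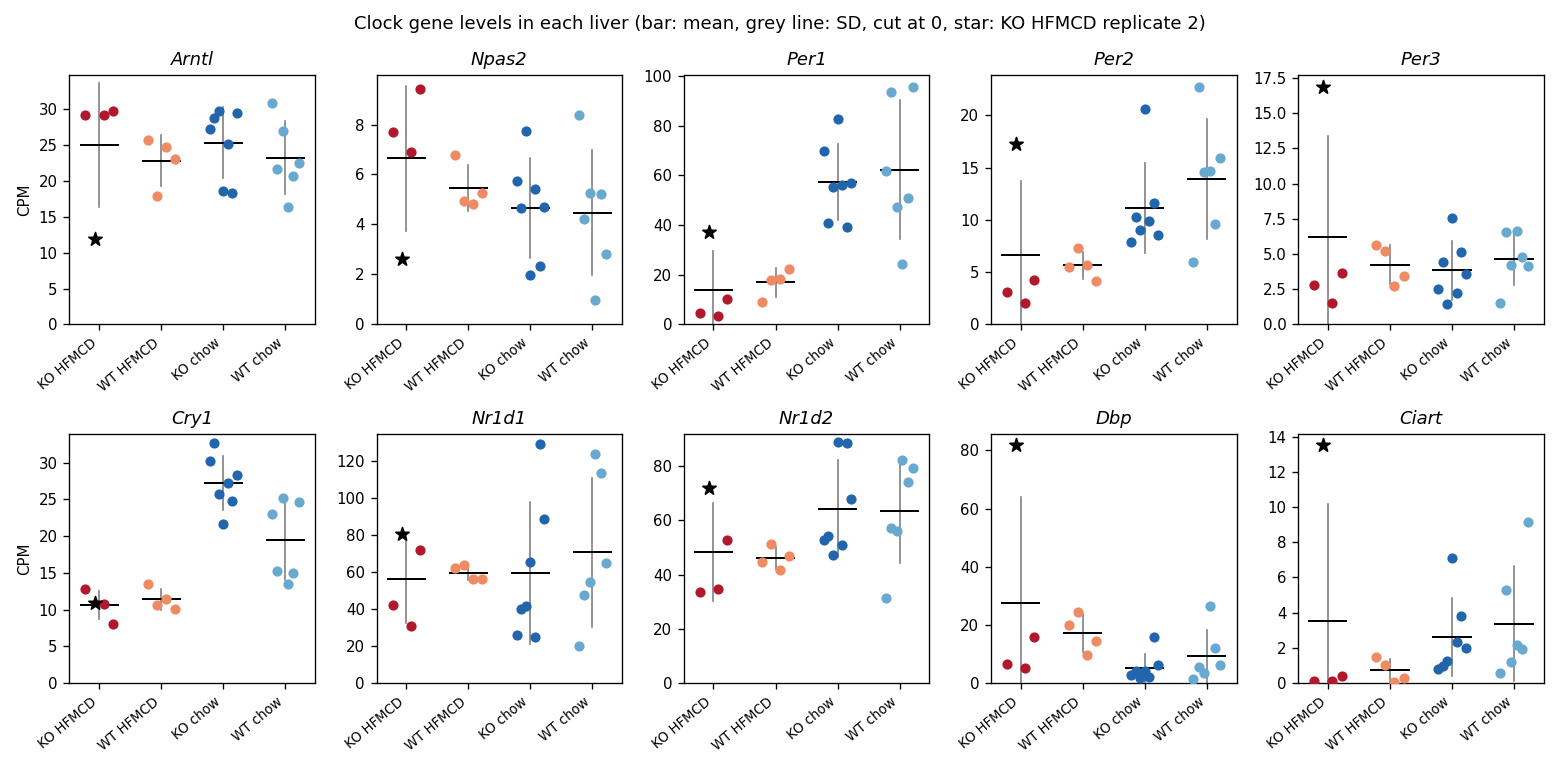
Each panel shows the level of 1 clock gene in CPM (vertical axis, from 0) in each of the 21 livers, by group, with the mean as a bar, the SD as a grey line and KO HFMCD replicate 2 as a star. Per1 and Cry1 lie lower in both HFMCD groups than in the chow groups, and the star lies outside the other 7 HFMCD livers for every gene but Cry1.

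Livers of the same group differed widely in their clock transcripts. The standard deviation of log2 CPM within groups had a median of 0.786 over the 10 genes, against 0.246 over all 15677 genes tested. Ciart had the widest spread, at 1.65, and 99.83% of all genes had a smaller one. Dbp followed at 1.25, above 99.45% of genes. Cry1 was the steadiest of the 10 at 0.285, above 56.54% of genes, and Arntl came next at 0.381. The members' median SD was 1.06 in KO HFMCD livers and 0.285 in WT HFMCD livers, where all genes had 0.211 and 0.172. It was 0.579 in KO chow livers and 0.745 in WT chow livers, where all genes had 0.225 and 0.263.

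Among chow livers the output gene Dbp gave the plainest view of this spread. It had 1.82 CPM in the lowest, 4.08 in the median and 15.8 in the highest KO chow liver, and 1.56, 5.79 and 26.5 CPM in WT chow livers. The highest WT chow liver (replicate 4) therefore held 16.98 times the Dbp of the lowest, and the 2 genotypes overlapped almost throughout. Nr1d1, the repressor of Arntl, ran from 24.8 through a median of 41.5 to 129 CPM in KO chow livers, and from 19.9 through 59.6 to 124 CPM in WT chow livers. The chow livers with the most Dbp, KO replicate 6 and WT replicate 4, were also those with the most Nr1d1 in their groups, and they had the least Arntl.

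**Figure D2:**
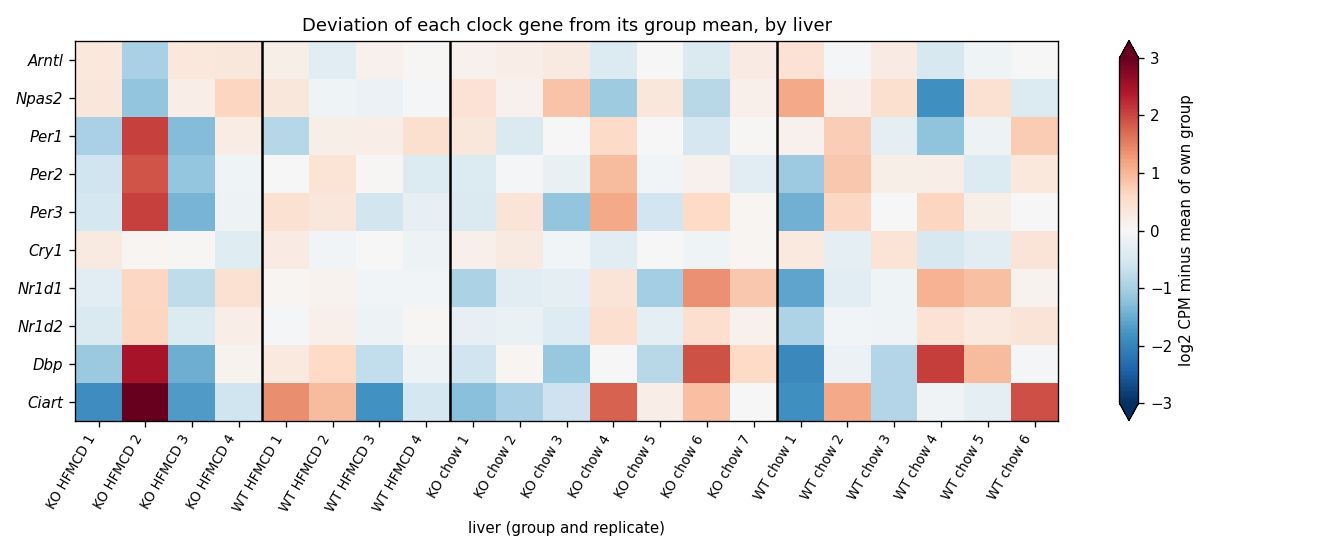
The map shows, for each clock gene (rows) and liver (columns), log2 CPM minus the mean of the liver's own group, in colour. Within the chow groups, livers high in Nr1d1, Nr1d2 and Dbp tended to be low in Arntl and Npas2, and KO HFMCD replicate 2 showed the widest deviations.

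Many pairs of the members varied together from liver to liver. To leave genotype out, each gene's log2 CPM was set against the mean of its own group, and the 45 pairs of genes were correlated over the 13 chow livers. Nr1d1 and Dbp varied together (Pearson r = 0.901, Spearman rho = 0.824, permutation p = 5e-05 and 0.00091, adjusted over the 45 pairs 0.00165 and 0.00846). The 2 activator genes Arntl and Npas2 also moved together (r = 0.877, rho = 0.78, permutation p = 0.00011 and 0.00254, adjusted 0.00165 and 0.0126). Arntl ran opposite to Nr1d2 (r = -0.836, rho = -0.83, permutation p = 0.00025 and 0.00088, adjusted 0.00187 and 0.00846). Arntl ran opposite to Dbp as well (r = -0.783, rho = -0.775, permutation p = 0.00164 and 0.00279, adjusted 0.00671 and 0.0126). Without the 2 livers farthest from the median of Arntl, r was -0.789 for Arntl with Nr1d2 and -0.555 for Arntl with Dbp. Without the 2 farthest for Nr1d1, Nr1d1 and Dbp kept r = 0.818. Within the groups, Arntl and Dbp had r = -0.569 in the 7 KO chow livers and r = -0.979 in the 6 WT chow livers.

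Of the 45 pairs, 24 passed an adjusted permutation p of 0.05 by Pearson's r, 13 positive and 11 negative, and 17 passed by Spearman's rho. Pairs of other genes were not counted in this way, so no background share stands beside these counts. All 24 had the same sign in KO chow and in WT chow livers and without the 2 farthest livers. The 24 were chosen because they passed over these same 13 livers, so that agreement is not separate evidence. The 13 chow livers share 1 design and the genes share their libraries, and the members were proposed with earlier results of these data known, so these tests describe these livers. The Per genes split. Per2 moved with Per3 (r = 0.785, rho = 0.687, permutation p = 0.0016 and 0.0124, adjusted 0.00671 and 0.0349). It also moved with Ciart (r = 0.799, rho = 0.742, permutation p = 0.001 and 0.00533, adjusted 0.00562 and 0.0184), whose product acts, like PER2, on ARNTL and its partner. Per1 passed with none of the other 9 genes, with r between -0.53 and 0.399. Cry1 moved with Arntl (r = 0.733, rho = 0.725, permutation p = 0.00493 and 0.0063, adjusted 0.0148 and 0.0202). It passed neither with Nr1d1 (r = -0.519, adjusted permutation p = 0.11) nor with Nr1d2 (r = -0.478, adjusted permutation p = 0.138). Without the 2 farthest livers, r was 0.522 for Per2 with Per3, 0.629 for Per2 with Ciart, 0.669 for Arntl with Cry1 and 0.802 for Arntl with Npas2.

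**Figure D3:**
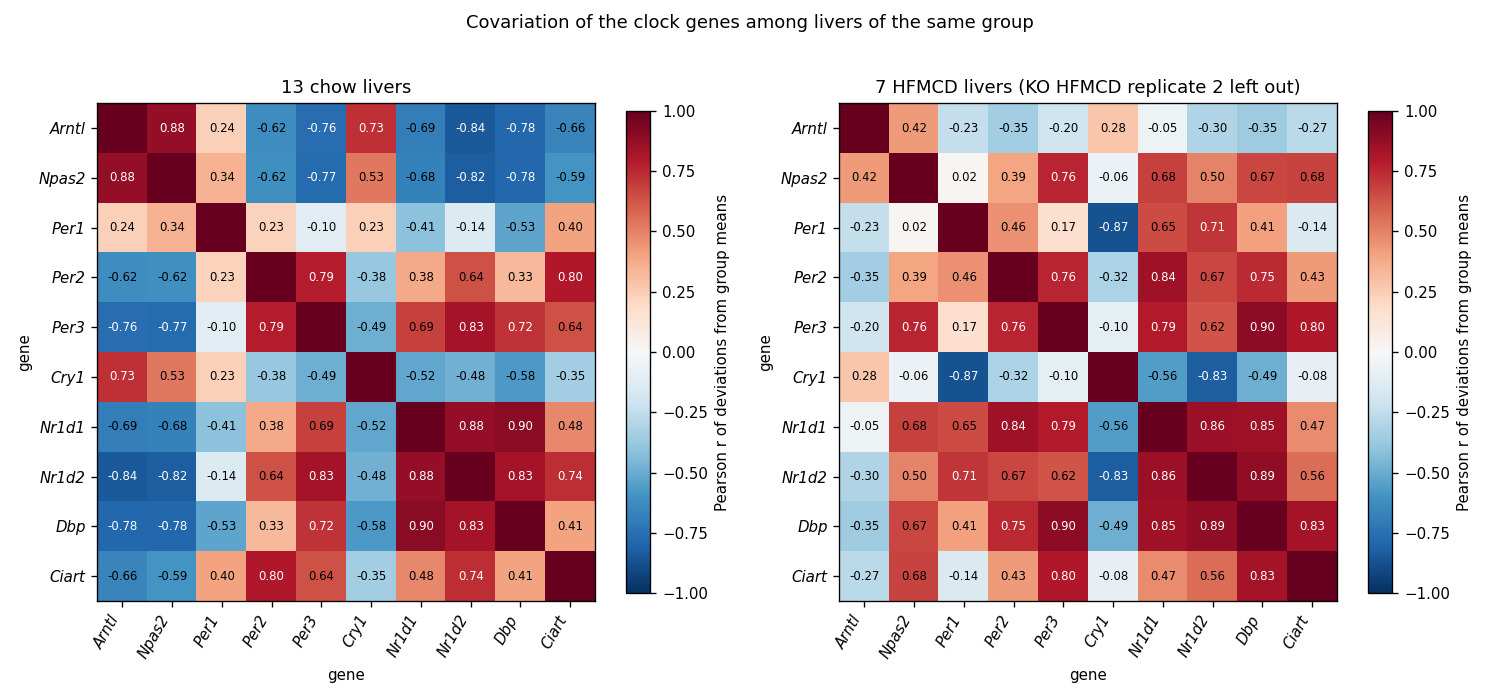
The colour of each cell gives Pearson's r between 2 clock genes, over deviations of log2 CPM from the group mean. The panels show the 13 chow livers and the HFMCD livers without KO HFMCD replicate 2. In chow livers Arntl and Npas2 form 1 block and Per3, Nr1d1, Nr1d2 and Dbp another. There r is negative between the blocks, as for Arntl with Nr1d2 (-0.836). In the HFMCD panel Npas2 is instead positive with Per3 (0.763), Nr1d1 (0.681), Nr1d2 (0.496) and Dbp (0.669). Arntl has r from -0.354 (Dbp) to -0.051 (Nr1d1) with these genes.

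In the 8 HFMCD livers 23 of these 24 pairs had the same sign as in chow livers, all but Arntl with Cry1 (r = -0.014). In the 7 livers left without KO HFMCD replicate 2, 19 did. The pairs that changed sign over the 7 were negative in chow livers and all held Npas2. They were Npas2 with Per2 (r = 0.392), Per3 (0.763), Nr1d1 (0.681), Nr1d2 (0.496) and Dbp (0.669). Arntl and Dbp had r = -0.883 over the 8 HFMCD livers and r = -0.354 over the 7, so that value rested on 1 liver. Nr1d1 and Dbp had r = 0.867 over the 8 and 0.847 over the 7.

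**Figure D4:**
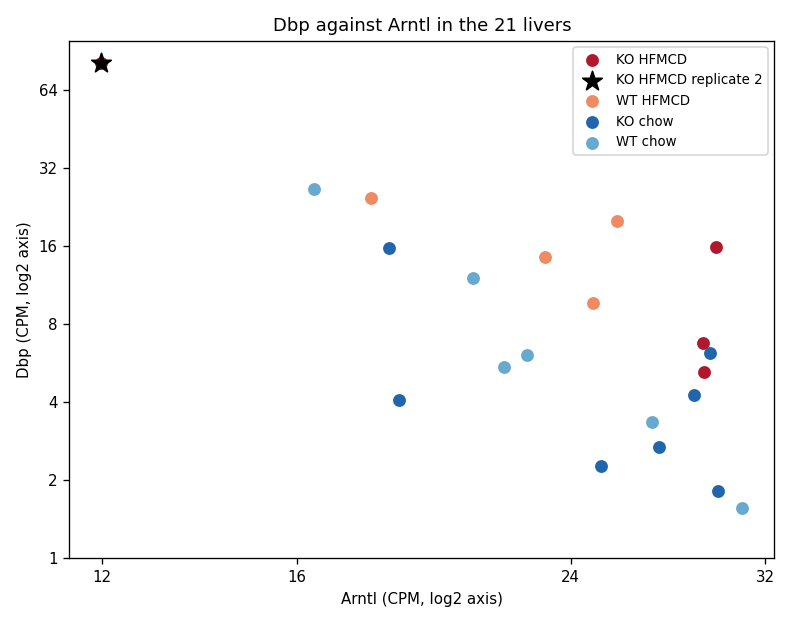
Dbp is plotted against Arntl for each of the 21 livers, in CPM on log2 axes, coloured by group, with KO HFMCD replicate 2 as a star. The star combines the lowest Arntl (11.98 CPM) with the highest Dbp of all 21 livers (81.6 CPM).

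KO HFMCD replicate 2 departed from its own group in most clock genes at the same time. It lay outside the range of the other 7 HFMCD livers for 9 of the 10 members, all but Cry1. It lay outside that range for 35.9% of all genes, and each of the other 7 livers did for 15.5% to 32.3%. Measured as an absolute log2 gap to the mean of the other 3 KO HFMCD livers, the members had a median of 2.04 and all genes 0.206. Among the genes that ARNTL drives, the Per, Nr1d, Dbp and Ciart transcripts were high, while Cry1 was 1.04 times the mean of the other 3 livers. Dbp was 8.77 times, Per3 6.42 times, Per1 6.02 times and Per2 5.55 times the mean of the other 3 livers. Ciart was 59.6 times that mean, from 367 reads in replicate 2 and 3, 4 and 11 reads in the other 3. Nr1d1 and Nr1d2 were 1.67 and 1.78 times that mean. The activator genes were low, Arntl at 0.408 and Npas2 at 0.326 of it.

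Other genes of the loop departed in that liver too. Tef, a D-box factor like Dbp, had 93.0 CPM in replicate 2, against 24.9 to 34.2 CPM in the other 3 KO HFMCD livers. Nfil3, which competes with such factors at D-boxes, had 9.37 CPM, against 19.8 to 34.2 CPM. Usp2, a deubiquitinase whose transcript cycles in liver, had 49.6 CPM, against 4.78 to 6.83 CPM. Fkbp5, a glucocorticoid target, had 85.1 CPM, against 28.3 to 46.8 CPM. The sums of hepatocyte markers (92584 CPM) and stellate markers (1044 CPM) in replicate 2 were the highest of the group, whose other livers went down to 85393 and 869 CPM. Alb (80247 CPM) made up most of the hepatocyte sum. Alb and Apoa1 were the highest of the group, Ttr lay within it and Cps1 (2792 CPM) was the lowest. The 5 cholangiocyte markers of replicate 2 summed to 62.1 CPM, also the highest of a group that ran from 38.1 CPM. Its macrophage markers (462 CPM) lay within a range of 421 to 574 CPM, with Clec4f and Adgre1 the lowest of the group and Trem2 the highest. Its endothelial (170 CPM), neutrophil (8.27 CPM) and erythroid markers (21.9 CPM) were the lowest of the group, which reached 197, 19.0 and 49.9 CPM. Mboat7 was at 15.8 CPM, below every WT liver. The part of these markers in the departure was not tested.

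The comparison of KO with WT asks whether loss of hepatocyte Mboat7 goes with other clock levels. On chow, none of the 10 genes passed an adjusted p of 0.05 in edgeR's quasi-likelihood test, where 2.17% of all genes did, and no member had groups without overlap, as 0.657% of genes did. A single member, Cry1, a repressor of ARNTL and its partner, passed at an unadjusted p under 0.05, as 2806 of all 15677 genes did. Cry1 had 21.7 CPM in the lowest, 27.2 in the median and 32.7 in the highest KO chow liver, and 13.4, 19.1 and 25.2 CPM in WT chow livers. The KO livers were higher on average, at 27.2 ± 3.65 CPM (SD, n = 7) against 19.4 ± 5.40 CPM in WT (n = 6), but 3 WT livers lay within the KO range. The log2 fold change was 0.49 (SE 0.14, edgeR adjusted p = 0.0746). DESeq2 put it past the threshold, at a log2 fold change of 0.50 (SE 0.15, DESeq2 adjusted p = 0.023), in a comparison where it called 4.5% of all genes. limma-voom gave it an adjusted p of 0.0527, and edgeR called it without WT chow replicate 3 (log2 fold change 0.57, adjusted p = 0.0279).

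The activator Arntl differed by 0.13 log2 units on chow (SE 0.19, adjusted p in edgeR 0.782), with 95% limits of -0.25 and 0.50. Its level was 18.3, 27.3 and 29.8 CPM (lowest, median and highest) in KO chow livers and 16.4, 22.1 and 30.9 CPM in WT chow livers. Dbp had the largest absolute difference of the 10 genes, -0.78 (SE 0.73, edgeR adjusted p = 0.621). Without WT chow replicate 4, the liver with the most Dbp, it was -0.06. The median over the members was -0.18, against 0.01 over all genes.

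On HFMCD none of the 10 genes passed either, in edgeR, DESeq2 or limma-voom. In edgeR none passed at an unadjusted p under 0.05, where 1562 of all 15677 genes did. There edgeR called 0.319% of all genes. No member had KO and WT livers without overlap, as 8.62% of genes did. Ciart had 0.119, 13.5, 0.145 and 0.415 CPM in the KO HFMCD livers and 1.48, 1.06, 0.0807 and 0.324 CPM in the WT HFMCD livers. Outside replicate 2 the KO values lay below the WT median of 0.690 CPM. The log2 fold change was 2.26 (SE 1.27, edgeR adjusted p = 0.588), and -1.67 without that liver (adjusted p = 0.755).

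Dbp, likewise, had 6.75, 81.6, 5.25 and 15.9 CPM in KO HFMCD livers and 19.98, 24.5, 9.64 and 14.6 CPM in WT HFMCD livers. On the log2 scale the difference of 0.67 (SE 0.87, edgeR adjusted p = 0.875) turned to -0.88 without replicate 2. Per2 and Per3 changed sign in the same way. Per3 had 2.78, 16.9, 1.48 and 3.62 CPM in KO HFMCD livers and 5.64, 5.197, 2.74 and 3.41 CPM in WT HFMCD livers. The log2 difference was 0.54, and -0.69 without replicate 2. Per2 had 3.06, 17.2, 2.03 and 4.23 CPM in KO HFMCD livers and 5.52, 7.35, 5.65 and 4.13 CPM in WT HFMCD livers. Its log2 fold change was 0.23, and -0.87 without replicate 2. Nr1d1 differed by -0.08 (SE 0.54, edgeR adjusted p = 0.985).

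Cholangiocyte markers differed between the same HFMCD groups. Their sums were 38.1 to 62.1 CPM in KO HFMCD livers, against 15.7 to 20.8 CPM in WT HFMCD livers, without overlap. Each of the 5 markers was higher in KO, without overlap. Krt7 (log2 fold change 1.48, SE 0.44, edgeR adjusted p = 0.178) and Krt19 (1.57, SE 0.61, adjusted p = 0.371) were not called. The other 3 were called, and were named after their values were seen. They were Epcam (log2 fold change 1.80, SE 0.37, edgeR adjusted p = 0.0433), Sox9 (0.94, SE 0.21, adjusted p = 0.0481) and Cftr (1.90, SE 0.42, adjusted p = 0.049). Without KO HFMCD replicate 2 they had 1.61, 0.89 and 1.88, and none was called (edgeR adjusted p = 0.157 to 0.168). The part of these markers in the clock values was not tested.

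**Figure D5:**
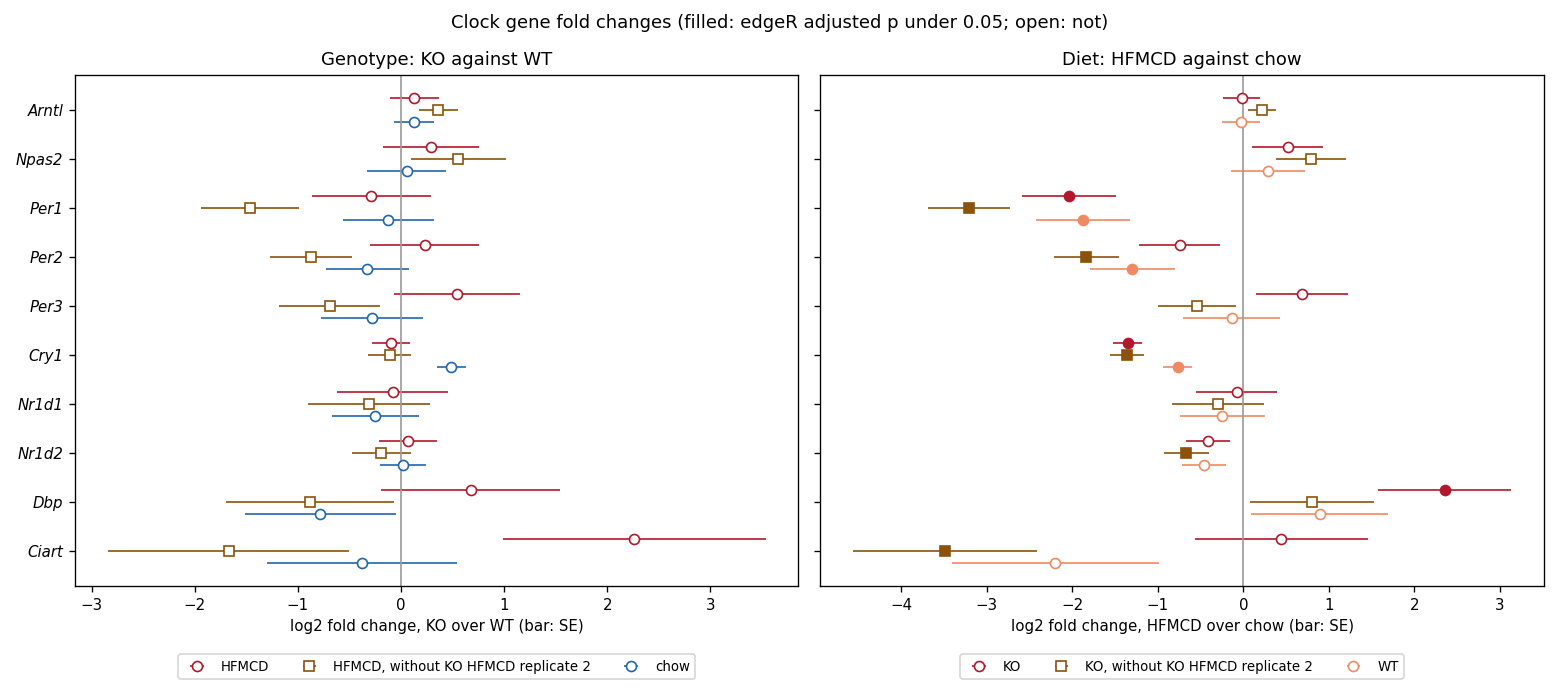
Log2 fold changes of the 10 clock genes with their SE, KO over WT on the left and HFMCD over chow on the right, with filled symbols for an edgeR adjusted p under 0.05 and squares for the fit without KO HFMCD replicate 2. On the right, Per1 and Cry1 are filled and below 0 in KO, in WT and without replicate 2, while Dbp in KO is filled only with replicate 2 in the fit.

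The diet comparison gave the clock differences that passed. Per1 and Cry1, both of the negative limb, were lower on HFMCD in both genotypes, with no overlap between the diets. Cry1 had 12.8, 10.95, 10.8 and 8.12 CPM in KO HFMCD livers, against 21.7, 27.2 and 32.7 CPM (lowest, median and highest) in KO chow livers. It had 13.43, 10.6, 11.4 and 10.1 CPM in WT HFMCD livers, against 13.45, 19.1 and 25.2 CPM in WT chow livers. Every HFMCD liver was below every chow liver of its genotype, by a wide gap in KO and a narrow one in WT. The log2 fold change was -1.35 (SE 0.17, edgeR adjusted p = 3.05e-07) in KO and -0.77 (SE 0.17, edgeR adjusted p = 0.00051) in WT.

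Per1, an early-responding Per gene that glucocorticoids also induce, had 4.49, 37.0, 3.55 and 10.4 CPM in KO HFMCD livers, against 39.0, 56.0 and 82.5 CPM (lowest, median and highest) in KO chow livers. It had 8.90, 18.0, 18.4 and 22.5 CPM in WT HFMCD livers, against 24.3, 56.3 and 95.6 CPM in WT chow livers. The groups did not overlap in either genotype, although replicate 2 came close to the KO chow livers. Its log2 fold change was -2.04 (SE 0.55, edgeR adjusted p = 0.00312) in KO, -3.21 in KO without replicate 2, and -1.87 (SE 0.55, edgeR adjusted p = 0.00683) in WT.

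These 2 comparisons called much of the transcriptome. Of the 10 members 3 were called in KO, where edgeR called 69.7% of all genes, and 3 in WT, where it called 62.5%. The members without overlap between diets were 2 in KO and 2 in WT, against 53% and 47.2% of all genes, so the members' shares were below those of all genes. The median log2 fold change over the members was -0.05 in KO and -0.35 in WT, where all genes had -0.02 and -0.05. Other cell types moved with diet. Of the 5 macrophage markers 4 rose in KO and 5 in WT, with sums of 421 to 574 CPM in KO HFMCD and 510 to 590 CPM in WT HFMCD livers, against 163 to 246 CPM in KO chow and 114 to 265 CPM in WT chow livers. Of the 5 stellate markers 4 rose in each genotype, with sums of 869 to 1044 and 774 to 915 CPM in KO and WT HFMCD livers, against 185 to 404 and 192 to 258 CPM in KO and WT chow livers. Of the 5 cholangiocyte markers 4 rose in KO and 2 in WT, with sums of 38.1 to 62.1 and 15.7 to 20.8 CPM in KO and WT HFMCD livers, against 9.11 to 27.8 and 9.23 to 15.9 CPM in KO and WT chow livers. Both neutrophil markers rose in each genotype, 2 of 3 lymphocyte markers did, and 1 of 4 endothelial markers rose in KO and 2 in WT. Of these markers only Cftr was at 0 in a liver, 1 WT chow liver. Of the 4 hepatocyte markers 2 fell in KO and 1 in WT. Mitochondrial transcripts made up 5.60% to 6.99% of counts in KO HFMCD and 5.18% to 6.19% in WT HFMCD livers, against 3.80% to 4.597% in KO chow and 3.70% to 4.34% in WT chow livers. In whole liver, fewer cells of a type and less RNA per cell cannot be told apart, and the part of these transcripts in the clock results was not tested.

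The third called member was Dbp in KO and Per2 in WT. Dbp was higher on HFMCD in KO, with the KO HFMCD values above against 1.82, 4.08 and 15.8 CPM (lowest, median and highest) in KO chow livers. Its log2 fold change was 2.36 (SE 0.78, edgeR adjusted p = 0.012), and 0.81 (adjusted p = 0.335) without replicate 2. Per2 was lower on HFMCD in WT, with 5.52, 7.35, 5.65 and 4.13 CPM in HFMCD livers, against 6.00, 14.7 and 22.8 CPM in chow livers. The groups overlapped only through the HFMCD liver with 7.35 CPM, and the log2 fold change was -1.30 (SE 0.50, edgeR adjusted p = 0.0294). Leaving out WT HFMCD replicate 1, 3 or 4, or WT chow replicate 2 or 6, ended the call, while the fold change stayed between -1.46 and -1.06 over all single livers left out. In WT livers the diet difference of Dbp was 0.90 (SE 0.80, edgeR adjusted p = 0.343), and in KO livers Per2 had -0.74 (SE 0.47, edgeR adjusted p = 0.17). The difference between genotypes was not called for either gene.

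Without KO HFMCD replicate 2, 5 members were called between the diets in KO, where 66.6% of all genes were. Per2 then had a log2 fold change of -1.83 (edgeR adjusted p = 0.000311), Ciart -3.48 (adjusted p = 0.00866) and Nr1d2 -0.66 (adjusted p = 0.0325), beside Per1 and Cry1. With that liver, Ciart had 0.45 and Nr1d2 -0.41 and neither was called.

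With all livers in the fit, Arntl, Npas2, Nr1d1, Nr1d2, Per3 and Ciart were not called by diet in either genotype. Arntl had 29.2, 11.98, 29.2 and 29.8 CPM in KO HFMCD livers and 25.7, 17.9, 24.8 and 23.1 CPM in WT HFMCD livers, within the chow ranges given above but for replicate 2. Its log2 fold change was -0.02 in KO (SE 0.21, edgeR adjusted p = 0.94) and -0.02 in WT (SE 0.22, adjusted p = 0.932), with 95% limits of -0.44 to 0.40 and -0.45 to 0.41. Npas2, an alternative partner of ARNTL, had 0.52 in KO (SE 0.41, edgeR adjusted p = 0.27) and 0.28 in WT (SE 0.43, adjusted p = 0.585). Nr1d1 had 42.2, 80.6, 30.6 and 71.6 CPM in KO HFMCD livers and 62.3, 63.8, 56.2 and 55.9 CPM in WT HFMCD livers. The WT HFMCD livers were close to each other, and both HFMCD groups lay inside the chow ranges. The log2 fold change of Nr1d1 was -0.08 in KO and -0.24 in WT, that of Nr1d2 -0.41 and -0.46, and that of Per3 0.69 and -0.13. Leaving out WT chow replicate 1 brought Nr1d2 in WT to -0.60 (edgeR adjusted p = 0.0291), past the threshold. Ciart had -2.20 in WT (SE 1.21, edgeR adjusted p = 0.124), from 36, 27, 2 and 8 reads in the 4 WT HFMCD livers.

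Whether the KO effect differed between diets was tested directly. No member passed in edgeR, DESeq2 or limma-voom, and edgeR called 0% of all genes. At an unadjusted p under 0.05 edgeR had 1581 genes, and DESeq2 called 97 and limma-voom 10 after adjustment. Cry1 was the only member at an unadjusted p under 0.05, with a difference of -0.58 (SE 0.24, edgeR adjusted p = 0.396). Ciart had the largest value, 2.64 (SE 1.56, edgeR adjusted p = 0.618), and -1.29 without KO HFMCD replicate 2.

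Of 15 other clock genes that could be tested, none was called between KO and WT on either diet. Of all genes, 2.17% were called on chow and 0.319% on HFMCD. With HFMCD, 3 rose and 5 fell in KO, and 1 rose and 7 fell in WT. That is 53.3% of the list in each genotype, below the 69.7% and 62.5% of all genes called in KO and WT. Their median log2 fold change was 0.05 in KO and -0.15 in WT. Bhlhe41, a repressor that competes for E-boxes, rose most. It averaged 7.04 ± 2.36 CPM in KO HFMCD livers and 5.34 ± 0.647 CPM in WT HFMCD livers (SD, n = 4 each), against 0.368 ± 0.168 CPM in KO chow livers (n = 7) and 0.434 ± 0.574 CPM in WT chow livers (n = 6). Its log2 fold change was 4.21 (SE 0.49, edgeR adjusted p = 1.78e-07) in KO and 3.58 (SE 0.51, adjusted p = 4.04e-06) in WT. Exons of Bhlhe41 overlap a gene on the other strand over 1280 bases. Clock, the main partner of ARNTL, fell, with -0.55 in KO (SE 0.10, edgeR adjusted p = 3.19e-05) and -0.32 in WT (SE 0.10, adjusted p = 0.00769). Rora, an activator of Arntl, fell by 0.71 and 0.66 on the log2 scale in KO and WT (edgeR adjusted p = 5.56e-08 and 3.79e-07). Without KO HFMCD replicate 2 the counts in KO were 2 higher and 7 lower.

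Of 21 liver genes known to cycle under the clock, 4 rose and 7 fell with HFMCD in KO, and 3 rose and 8 fell in WT, with medians of -0.32 and -0.29. The called share was 52.4% in each genotype, again below the 69.7% and 62.5% of all genes in KO and WT. Wee1, a kinase that restrains mitosis and is driven by ARNTL through E-boxes, rose in both (log2 fold changes 2.05 and 1.86, edgeR adjusted p = 1.82e-08 and 3.03e-07). Lpin1, a phosphatidate phosphatase, fell in both, with -3.23 in KO (SE 0.64, edgeR adjusted p = 0.000235) and -3.57 in WT (SE 0.66, edgeR adjusted p = 0.000151). Between KO and WT, edgeR called 2.17% of all genes on chow and 0.319% on HFMCD. Of the 21 listed genes, 2 fell on chow (9.52%) and 1 on HFMCD (4.76%). They were Elovl3, a fatty acid elongase, on chow (-1.07, SE 0.27, edgeR adjusted p = 0.0389) and on HFMCD (-2.11, SE 0.36, adjusted p = 0.0181), and Gys2, the liver glycogen synthase, on chow (-0.50, SE 0.12, adjusted p = 0.0345). On HFMCD, Elovl3 ran from 0.662 to 2.50 CPM in KO livers, against 5.35 to 10.2 CPM in WT livers, without overlap. Without KO HFMCD replicate 2 its log2 fold change was -1.84 (SE 0.34) and its edgeR adjusted p was 0.0768.

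Genes that follow signals known to set the liver clock were counted in the diet comparison, where 69.7% of all genes were called in KO and 62.5% in WT. Of 7 glucocorticoid-responsive genes 1 rose and 5 fell in KO and 5 fell in WT, with medians of -1.37 and -1.10. Fkbp5 had -1.53 in KO (SE 0.35, edgeR adjusted p = 0.000717) and -1.65 in WT (SE 0.35, adjusted p = 0.000556). Of 8 temperature-responsive genes 1 rose and 5 fell in KO, and 1 rose and 4 fell in WT, with medians of -0.75 and -0.90. Of 9 feeding and fasting genes 1 rose and 5 fell in KO, and 1 rose and 4 fell in WT, with medians of -1.50 and -1.02. The called shares were 85.7% in KO and 71.4% in WT for the glucocorticoid list, 75% and 62.5% for the temperature list, and 66.7% and 55.6% for the feeding list. The temperature and feeding shares were near those of all genes. Pck1, the gluconeogenic enzyme induced in fasting, had -2.25 (SE 0.26, edgeR adjusted p = 1.59e-07) in KO and -1.55 (SE 0.25, adjusted p = 2.15e-05) in WT. The part of these signals in the clock results was not tested.

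Outside the 10 members, the genes that followed Arntl most closely from liver to liver were ranked by r over all 21 livers, on deviations from group means, among 12946 genes. They were Clpx (r = 0.917), Lgalsl (0.905), Leo1 (0.857), Snapc1 (0.829) and Adipor2 (0.825). Without KO HFMCD replicate 2 these values ran from 0.683 for Leo1 to 0.826 for Clpx. Those most like Dbp were Tef (0.915), Cry2 (0.854), Trib3 (0.811), Upp2 (0.808) and Jade1 (0.805), and between 0.705 for Jade1 and 0.875 for Tef without that liver. Tef, the gene most like Dbp, ran opposite to Arntl, with r = -0.891 over 21 livers and -0.818 over 20.

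Exons of 3 members lie over exons of a gene on the other strand in GENCODE M21 on GRCm38, and the strand setting of the counting is not given in the sources used here. Dbp (chr7:45705088-45710203, forward) shares 539 bases with Sphk2, which had 34.6 to 93.0 CPM across the livers. Nr1d1 (chr11:98767932-98775333, reverse) shares 263 bases with Thra, at 12.9 to 22.9 CPM. Arntl (chr7:113207465-113314126, forward) shares 33 bases with Gm45355. Reads of these shared stretches cannot be assigned to a strand here.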

How the data were processed

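RNA-seq of whole liver was analysed in 21 libraries in 4 groups. The authors deposited raw read counts per gene symbol, 1 file per library, without normalization, per the file headers. The build GRCm38 and the tools featureCounts 1.6.1, STAR 2.6.1d and CASAVA 2.17 are named, without roles, per the submitters' processing notes. The annotation, strand setting and read filters are not given in the sources used here. Tissue was rinsed through with PBS and stored in RNAlater before RNA extraction, per the labels' protocols. Each library was taken as a separate mouse. Within groups, 48 pairs of libraries were compared, and 0 were identical or within sampling noise.

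The counts went into edgeR 4.0.16 (R 4.3.3) with filterByExpr by group, TMM scaling and 1 robust quasi-likelihood fit of 4 group means to all libraries. Benjamini-Hochberg adjustment ran over all 15677 genes tested, and calls were made at an adjusted p under 0.05. SE was derived from the F statistic and the log2 fold change. CPM divides by the library's TMM-scaled total over tested genes. A prior count of 2 was added for log2 CPM. Libraries held 17502231 to 25822972 counts, and reads were not reduced to molecules. Counting error is large for Ciart in some livers. Other members also had few reads in single livers, such as Npas2 with 21 in WT chow replicate 4 and Per3 with 27 in KO chow replicate 3. Correlations used deviations of log2 CPM from group means with 100000 two-sided permutations of the pairings. DESeq2 1.42.0 and limma 3.58.1 (voom with sample quality weights), other scalings and filters, and fits without single livers were alternatives. The fit was checked on simulated counts.

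The 10 genes and the other lists were chosen with earlier results of these data known. From each list, up to 4 called genes with the smallest p per comparison could be named, and the 5 genes most like Arntl and Dbp. Levels of single list genes in KO HFMCD replicate 2 (Tef, Nfil3, Usp2, Fkbp5) were chosen after their values were seen. A further list result is not reported here. Positions come from GENCODE M21, in which 55341 of the 55418 symbols were found, and promoters from RefSeq on GRCm38.p6. Exons of 29 of 85 named genes overlap exons of a gene on the other strand.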

Additional observations from a re-analysis of the deposited data

Results flagged for a closer look

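Of 40 groups of values (10 genes in 4 groups), 7 had a highest or lowest liver separated from the rest by Dixon's 95% criterion, and chance gives about 1 in 20. Of the 7, 5 were KO HFMCD replicate 2. It had the lowest Arntl of its group, 11.98 CPM, where the other 3 livers had 29.2 to 29.8 CPM. It had the highest Per2 (17.2 CPM, next 4.23), Per3 (16.9 CPM, next 3.62), Dbp (81.6 CPM, next 15.9) and Ciart (13.5 CPM, next 0.415).

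The other 2 were chow livers of the KO group. Per2 in KO chow replicate 4 was 20.6 CPM, with the next liver at 11.6 CPM. Dbp in KO chow replicate 6 was 15.8 CPM, with the next at 6.20 CPM. No cause was tested for any of these values.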

How the results depend on the processing

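No value of a member called by edgeR changed sign under any alternative run. Per1 and Cry1 stayed called by diet in both genotypes in every fit. DESeq2 called 1 member between KO and WT on chow, Cry1, and leaving out single livers gave 0 to 1. Between diets in KO, leaving out single livers gave 3 to 5 members called, and 2 to 4 in WT. The call of Dbp in KO was lost with limma-voom (1.57, adjusted p = 0.0775) and without KO HFMCD replicate 2, and that of Per2 in WT also without a low-count filter. Among values that were not called, small ones changed sign. Arntl in KO had 0.0004 with DESeq2, 0.0008 with limma-voom, 0.0336 without a filter, 0.0052 with only the groups compared and 0.0498 without KO chow replicates 1 and 7. Arntl in WT had 0.0065 with DESeq2, 0.0066 with RLE scaling, 0.0036 with only the groups compared and 0.0287 without a filter. limma-voom, which weights livers, turned KO against WT on HFMCD to -0.56 for Per2, -0.28 for Per3, -0.57 for Dbp and -0.38 for Ciart. It gave diet effects of 0.0504 for Nr1d1 and -2.26 for Ciart in KO, 0.0105 for Per3 and 0.0823 for Nr1d1 in WT, and a difference of -0.23 for Ciart. Leaving out single livers, KO against WT on HFMCD ran from -0.87 to 0.53 for Per2, -0.69 to 0.87 for Per3, -0.31 to 0.12 for Nr1d1, -0.88 to 1.02 for Dbp and -1.67 to 2.84 for Ciart. The diet effect in KO ran from -0.11 to 0.22 for Arntl, -0.54 to 1.02 for Per3, -0.30 to 0.26 for Nr1d1 and -3.48 to 0.92 for Ciart. In WT it ran from -0.0775 to 0.0844 for Arntl, -0.32 to 0.0463 for Per3 and -0.44 to 0.0459 for Nr1d1. The difference of the KO effect ran from -1.29 to 3.22 for Ciart. Without KO chow replicates 1 and 7, 19 correlated pairs passed in place of 24, and 24 with RLE scaling. The number of genes called over the whole table moved from 340 to between 2 and 705 for KO against WT on chow, from 50 to 193 with DESeq2 and to 1 without WT HFMCD replicate 2 on HFMCD, with a still higher count by limma-voom, and from 0 to up to 97 for the difference. List counts and list gene values without KO HFMCD replicate 2 were added after seeing the data. No paired analysis was possible because the groups share no animal number. The cause was not tested where a value changed. Depth limits Ciart, with 2 to 11 reads in 5 HFMCD livers. The p-values measure the spread between these mice, collected at unstated hours.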
